A study of Mus musculus with 6 samples.

Results

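The genes described here are the 7 inhibitors of cyclin-dependent kinases (CDKs) of the INK4 and Cip/Kip families, together with *Trp53* and its targets *Mdm2* and *Ccng1*. They were taken from the deposited gene table by symbol, and each of the 10 symbols matched 1 of its 56980 genes. All 10 passed the filter on low counts, which left 15190 genes for testing. RNA-Seq was performed on bone marrow mesenchymal stem cells (MSCs) of female mice that had been ovariectomized (OVX), a surgical model of postmenopausal bone loss. Every recipient had also received an antibiotic cocktail to deplete its own gut microbes. The 3 TranspCtrl samples came from recipients given fecal microbiota of sedentary OVX donors, and the 3 TranspExer samples from recipients given that of OVX donors trained on a treadmill. The comparison asks how the donor's exercise bears on the transcriptome of the recipient's MSCs. No altered allele is named for either group, and the sources used here give no strain. The cells were flushed from femurs and tibias and grown in culture, with no sorting step described, and whether the 3 samples of a group came from separate animals or cultures is not stated. The p-values therefore measure only the spread between these samples, which may be technical.

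The cell cycle passes from G1 into DNA synthesis when cyclin D with CDK4 or CDK6, and then cyclin E with CDK2, phosphorylate the retinoblastoma protein and free the E2F transcription factors. INK4 proteins bind CDK4 and CDK6 and keep them from cyclin D, whereas Cip/Kip proteins bind whole cyclin-CDK complexes, those of CDK2 above all. The transcription factor p53 induces *Cdkn1a*, the gene of p21, and *Mdm2*, whose product marks p53 for degradation, so that the pathway limits itself. The *Cdkn2a* locus ties both arms together, as it encodes p16Ink4a, an INK4 inhibitor, and p19Arf, which holds MDM2 away from p53. Of these genes, *Cdkn2a* and *Cdkn1a* are best known in marrow stromal cells as markers and effectors of cellular senescence.

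Stretches of promoter sequence are shown for the 2 windows that held a p53 site and for the starts of *Cdkn2a* and *Cdkn2b*, the genes that fell past both thresholds. Each is the 250 bases before a RefSeq transcription start on GRCm38.p6, written 5′ to 3′ on the strand of the gene. Capitals in the *Cdkn1a* window (chr17:29090729-29090978, plus strand) and the *Ccng1* window (chr11:40755287-40755536, minus strand) mark a match to the p53 site, and capitals in the window of the p19Arf start of *Cdkn2a* (chr4:89294620-89294869, minus strand) mark GC boxes. The window of the p16Ink4a start (chr4:89282193-89282442, minus strand) and that of *Cdkn2b* (chr4:89311033-89311282, minus strand) held neither motif.
Cdkn1a: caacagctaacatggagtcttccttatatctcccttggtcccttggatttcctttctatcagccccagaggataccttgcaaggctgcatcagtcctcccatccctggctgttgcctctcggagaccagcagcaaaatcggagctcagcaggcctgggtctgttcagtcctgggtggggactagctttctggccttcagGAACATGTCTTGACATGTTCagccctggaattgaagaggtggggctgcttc
Ccng1: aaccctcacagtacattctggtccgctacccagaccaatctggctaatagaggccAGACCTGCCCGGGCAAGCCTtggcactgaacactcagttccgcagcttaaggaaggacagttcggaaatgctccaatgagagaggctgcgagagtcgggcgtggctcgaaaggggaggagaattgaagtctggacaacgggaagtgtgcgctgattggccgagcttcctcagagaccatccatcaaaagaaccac
Cdkn2a, p19Arf start: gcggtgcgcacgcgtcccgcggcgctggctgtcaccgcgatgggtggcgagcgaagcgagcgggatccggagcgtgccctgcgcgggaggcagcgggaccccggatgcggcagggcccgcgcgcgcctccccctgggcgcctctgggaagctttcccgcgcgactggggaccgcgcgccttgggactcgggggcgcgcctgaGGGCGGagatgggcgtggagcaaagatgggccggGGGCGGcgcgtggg
Cdkn2a, p16Ink4a start: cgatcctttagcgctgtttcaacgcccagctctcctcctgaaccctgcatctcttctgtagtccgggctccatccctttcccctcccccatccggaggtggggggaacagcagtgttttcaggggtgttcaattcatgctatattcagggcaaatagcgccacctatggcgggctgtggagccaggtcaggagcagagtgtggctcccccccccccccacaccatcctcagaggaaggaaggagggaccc
Cdkn2b: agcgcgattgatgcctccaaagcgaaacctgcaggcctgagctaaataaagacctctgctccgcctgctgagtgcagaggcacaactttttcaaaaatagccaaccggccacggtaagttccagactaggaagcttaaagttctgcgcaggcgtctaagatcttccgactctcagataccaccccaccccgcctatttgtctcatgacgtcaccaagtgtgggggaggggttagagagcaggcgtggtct
RefSeq gave 12 windows for 9 of the 10 genes, and *Cdkn1c* was not among them. The p53 site was searched by its name as 2 adjoining palindromic decamers with at most 2 mismatches, none of them at the C and G of the CNNG core of either decamer, a form that reads the same on both strands. It began 51 bases before the upstream of the *Cdkn1a* starts, as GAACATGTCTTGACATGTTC, and 195 bases before that of *Ccng1*, as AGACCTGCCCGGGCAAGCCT, each with 1 mismatch. The other 10 windows held none, among them that of *Mdm2* and that of the second *Cdkn1a* start (chr17:29093519-29093768, plus strand). Such a match was present in 0.271% of all 32851 windows of this length, and in the windows of 0 of 20 other p53 target genes. The GC box, GGGCGG or CCGCCC on either strand, was present in 32.7% of all windows and lay 48 and 14 bases before the p19Arf start. It was also present before the second *Cdkn1a* start, 1 of the *Cdkn2c* starts, and the starts of *Cdkn1b*, *Cdkn2d* and *Mdm2*. These matches are descriptions of the sequence, and a missing match says only that the letters are not in the window.

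Total counts per sample ranged from 17647638 to 21319166, at which 3 counts correspond to 0.139 to 0.174 CPM, the count scaled to the TMM library size. TranspCtrl replicate 1 stood apart from its group, at a distance of 60.2 to 62.8 from the other TranspCtrl samples over the log2 CPM of the tested genes, against 37 between those samples and 42.8 to 43.9 among the TranspExer samples. Distances between the groups ran from 82.7 to 110. The log2 fold change of each of the 10 genes is therefore given without it as well. Markers counted below as higher or lower had an edgeR adjusted p under 0.05, as did 16.6% and 15.5% of all tested genes. Across the culture, summed CPM of 10 B and plasma cell markers ranged from 1949 to 2264 in TranspCtrl and from 594.4 to 626.2 in TranspExer, with 9 of the 10 lower. Those of 10 macrophage markers ranged from 8516 to 12790 and from 6661 to 7141, with 3 higher and 2 lower, and those of 6 osteoclast markers from 453.7 to 589.8 and from 321.4 to 346.5, with 1 higher and 5 lower. The 10 granulocyte markers (3167 to 4244 against 5522 to 5745, with 5 higher and 1 lower) and the 8 endothelial markers (187.5 to 231.4 against 620.5 to 676.7, all 8 higher) stood the other way. The 8 T and NK cell markers summed to between 59.57 and 62.72 against 78.84 to 85.29, with 2 higher and 1 lower. Stromal markers were abundant in every sample, led by *Col1a1*, and summed to between 14950 and 23020 in TranspCtrl against 14220 to 15520 in TranspExer, with 3 of 12 higher and 8 lower. Leading genes of the other lists were *Lyz2*, *Jchain*, *Ngp*, *Cdh5*, *Cd4* and *Acp5*, and the erythroid genes *Hbb-bs*, *Alas2* and *Klf1* were at 3 counts or fewer in every sample. The labelled cell type was thus accompanied by markers of other marrow cells, whose part in the results below was not tested, and fewer cells of a type cannot be told apart from less RNA per cell.

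The INK4 genes divided by locus. *Cdkn2a* and *Cdkn2b*, neighbours on chromosome 4 with 11.6 kb between them, both fell, whereas *Cdkn2c* and *Cdkn2d*, which lie elsewhere, did not pass the test. *Cdkn2a* (ENSMUSG00000044303, chr4:89274471-89294653, minus strand) was measured at 7.76, 4.93 and 5.35 CPM in the TranspCtrl samples and at 1.52, 0.988 and 0.695 CPM in the TranspExer samples. The groups did not overlap, and the lowest TranspCtrl sample stood above every TranspExer sample. The mean level was 5.62-fold lower in TranspExer, at 1.07 ± 0.416 CPM against 6.01 ± 1.53 (SD, n = 3 each), with a log2 fold change of -2.49 (SE 0.31, 95% interval -3.20 to -1.79, edgeR quasi-likelihood adjusted p = 0.000915). The values rest on 96 to 159 counts in TranspCtrl and on 14 to 29 in TranspExer. Both annotated transcripts, Cdkn2a-201 (chr4:89274471-89282192), which begins at the p16Ink4a start, and Cdkn2a-202 (chr4:89274541-89294653), which begins shortly upstream of the RefSeq p19Arf start and so takes in the nearer of its GC boxes, share exons and are summed in this 1 value. The table does not separate p16Ink4a from p19Arf.

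*Cdkn2b* (ENSMUSG00000073802, chr4:89306299-89311039, minus strand) encodes p15Ink4b, an inhibitor of CDK4 and CDK6 known for its induction by TGF-β. It was measured at 14.4, 17.3 and 18.7 CPM in TranspCtrl and at 6.38, 5.75 and 5.22 CPM in TranspExer. The groups stood clear of each other, with every TranspExer sample below the lowest TranspCtrl sample. The means were 16.8 ± 2.19 and 5.78 ± 0.584 CPM (SD, n = 3 each), a 2.90-fold lower level in TranspExer (log2 fold change -1.54, SE 0.14, 95% interval -1.86 to -1.21, edgeR adjusted p = 0.000249). Without TranspCtrl replicate 1, which had the highest *Cdkn2a* and the lowest *Cdkn2b* value of its group, the log2 fold changes were -2.27 and -1.64.

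*Cdkn2c* (ENSMUSG00000028551, chr4:109660876-109667189, minus strand), the gene of p18Ink4c, was measured at 21.2, 30.4 and 29.8 CPM in TranspCtrl and at 32.0, 33.9 and 33.1 CPM in TranspExer. Every TranspExer sample was above every TranspCtrl sample, but TranspCtrl replicate 1 stood well below the other samples of its group. The log2 fold change was 0.28 (SE 0.14, 95% interval -0.03 to 0.60, edgeR adjusted p = 0.148), and 0.13 without TranspCtrl replicate 1 (edgeR adjusted p = 0.143). *Cdkn2d* (ENSMUSG00000096472, chr9:21288410-21291407, minus strand), the gene of p19Ink4d, was measured at 17.1, 14.2 and 15.0 CPM against 18.2, 16.7 and 15.9 CPM. These ranges overlapped, and the log2 fold change was 0.13 (SE 0.11, 95% interval -0.12 to 0.39, edgeR adjusted p = 0.383).

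CPM per kilobase sets genes against each other by their deposited lengths, which were not checked against the transcripts expressed. On this scale *Cdkn2a* and *Cdkn2b* together made up 37.9%, 32.4% and 34.1% of the summed INK4 level in the TranspCtrl samples. In the TranspExer samples they made up 13.1%, 11.0% and 9.92%. The part of *Cdkn2c* was 38.2%, 49.7% and 47.3% against 60.3%, 64.4% and 65.6%. In both groups *Cdkn2c* was thus the leading INK4 transcript. The summed level was 54.2 ± 3.51 CPM per kb in TranspCtrl and 47.1 ± 1.26 in TranspExer (SD, n = 3 each).

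**Figure D1:**
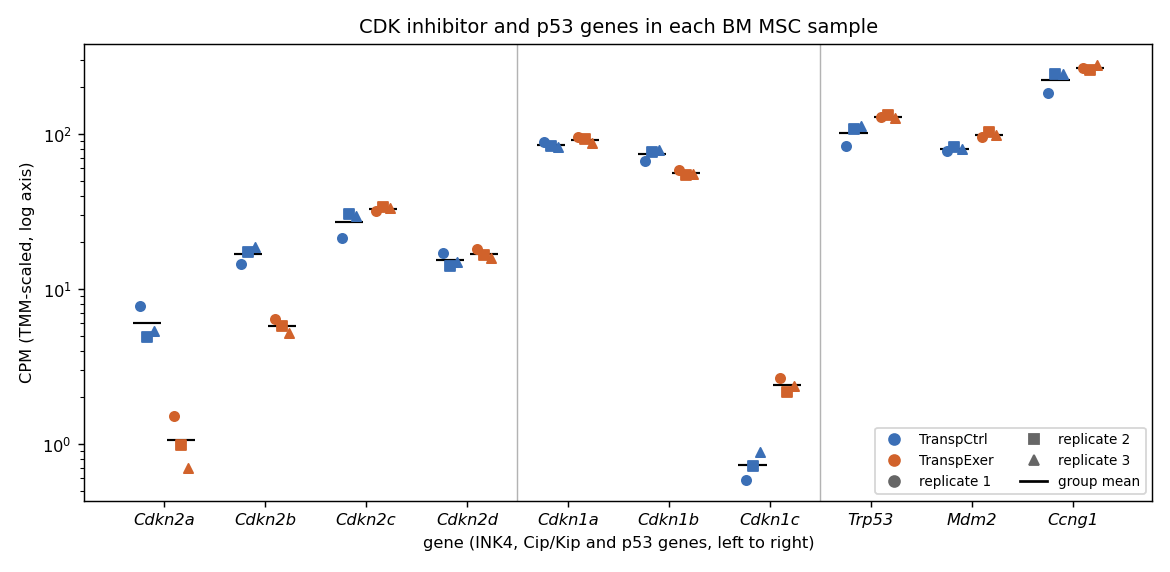
CPM of the 10 genes in each of the 3 TranspCtrl and 3 TranspExer samples, with the mean of each group. *Cdkn2a*, *Cdkn2b* and *Cdkn1b* lie lower in every TranspExer sample than in any TranspCtrl sample, and *Cdkn1c*, *Trp53*, *Mdm2*, *Cdkn2c* and *Ccng1* lie higher.

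Of the Cip/Kip genes, *Cdkn1c* rose, *Cdkn1b* fell, and *Cdkn1a*, the most abundant of the 10 genes per kilobase, did not pass the test. *Cdkn1a* (ENSMUSG00000023067, chr17:29090976-29100727, plus strand) encodes p21, the main mediator of p53-dependent arrest. It was measured at 89.1, 83.5 and 83.0 CPM in TranspCtrl and at 95.1, 93.2 and 87.5 CPM in TranspExer. The lowest TranspExer sample lay below the highest TranspCtrl sample, and the log2 fold change was 0.11 (SE 0.07, 95% interval -0.06 to 0.28, edgeR adjusted p = 0.284). That interval lies within the 2-fold threshold on both sides. An antisense gene model, AC167363.2, overlaps an exon of *Cdkn1a*, but averaged 7.5 counts per sample against 1736 for *Cdkn1a*.

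*Cdkn1b* (ENSMUSG00000003031, chr6:134920401-134925513, plus strand) encodes p27, which holds quiescent cells out of the cycle. Its values were 66.8, 76.6 and 79.0 CPM in TranspCtrl and 58.5, 54.5 and 55.2 CPM in TranspExer. The groups did not overlap. The mean fell from 74.1 ± 6.45 to 56.1 ± 2.13 CPM (SD, n = 3 each), 1.32-fold (log2 fold change -0.40, SE 0.09, 95% interval -0.60 to -0.20, edgeR adjusted p = 0.0106), short of the 2-fold threshold of the study.

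*Cdkn1c* (ENSMUSG00000037664, chr7:143458339-143461050, minus strand) encodes p57, the product of an imprinted gene expressed from the maternal allele. It was measured at 0.586, 0.719 and 0.883 CPM in TranspCtrl and at 2.67, 2.15 and 2.38 CPM in TranspExer. Every TranspExer sample exceeded every TranspCtrl sample. The means were 0.729 ± 0.149 and 2.40 ± 0.259 CPM (SD, n = 3 each), 3.27-fold higher in TranspExer (log2 fold change 1.71, SE 0.25, 95% interval 1.13 to 2.29, edgeR adjusted p = 0.00208). These levels rest on 12 to 19 counts against 37 to 51, all above the 3-count limit. The antisense model Gm44732, which overlaps it, had at most 1 count in any sample.

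Per kilobase, *Cdkn1c* made up 0.230% to 0.346% of the summed Cip/Kip level in TranspCtrl and 0.855% to 1.03% in TranspExer. *Cdkn1a* held 66.5% to 71.6% and 74.4% to 75.9%, and *Cdkn1b* 28.2% to 33.2% and 23.3% to 24.6%. The sum itself was 135 ± 0.402 CPM per kb in TranspCtrl and 133 ± 5.13 in TranspExer (SD, n = 3 each), with overlapping samples.

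Of the p53 genes, *Trp53* and *Mdm2* rose by less than 2-fold and *Ccng1* did not pass the test. *Trp53* (ENSMUSG00000059552, chr11:69580359-69591873, plus strand) was measured at 83.3, 107 and 112 CPM in TranspCtrl and at 128, 132 and 128 CPM in TranspExer. TranspCtrl replicate 1 was the lowest of the 6 samples, and the groups did not overlap. The log2 fold change was 0.36 (SE 0.11, 95% interval 0.10 to 0.62, edgeR adjusted p = 0.0443), a 1.28-fold higher level. The call was lost with upper-quartile normalization (adjusted p = 0.0545) and, among the fits that left out a sample, without TranspCtrl replicate 2 (adjusted p = 0.0568) or TranspExer replicate 1, 2 or 3 (adjusted p = 0.107, 0.132 and 0.114). Without TranspCtrl replicate 1 the log2 fold change was 0.24 (edgeR adjusted p = 0.00313).

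*Mdm2* (ENSMUSG00000020184, chr10:117688875-117710758, minus strand) was measured at 78.2, 82.6 and 79.9 CPM in TranspCtrl and at 95.6, 103 and 99.0 CPM in TranspExer. All 3 TranspExer samples were above the TranspCtrl samples. The log2 fold change was 0.30 (SE 0.07, 95% interval 0.14 to 0.47, edgeR adjusted p = 0.0143), 1.24-fold higher, and the call was lost without TranspCtrl replicate 3, TranspExer replicate 2 or TranspExer replicate 3 (adjusted p = 0.0514, 0.0802 and 0.0578). The ratio of *Mdm2* to *Trp53* per kilobase was 0.537, 0.441 and 0.408 in TranspCtrl and 0.427, 0.445 and 0.443 in TranspExer, ranges that overlapped.

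*Ccng1* (ENSMUSG00000020326, chr11:40748552-40755311, minus strand) encodes cyclin G1, which recruits a phosphatase to MDM2. Its values were 185, 243 and 245 CPM in TranspCtrl and 268, 257 and 280 CPM in TranspExer. The groups did not overlap, with TranspCtrl replicate 1 again the lowest sample, and the log2 fold change was 0.26 (SE 0.12, 95% interval -0.02 to 0.53, edgeR adjusted p = 0.131). Without that sample it was 0.13 (edgeR adjusted p = 0.0591).

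Of the 10 genes, 3 rose and 3 fell at an adjusted p under 0.05, beside 32.2% of all tested genes (16.6% higher and 15.5% lower). With the 2-fold threshold added, 1 rose and 2 fell, beside 8.78% of all tested genes (3.5% higher and 5.28% lower). No overlap between the groups was seen for 8 of the 10 genes, 5 higher and 3 lower, beside 52.4% of all tested genes (27.2% higher and 25.1% lower). The median log2 fold change of the 10 genes was 0.19, and that of all tested genes was -0.02. Without TranspCtrl replicate 1 the counts were 3 higher and 3 lower as well, beside 41.7% of all genes tested in that fit, and the log2 fold changes of *Cdkn2d*, *Cdkn1a*, *Cdkn1b*, *Cdkn1c* and *Mdm2* were 0.21, 0.14, -0.47, 1.57 and 0.29.

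**Figure D2:**
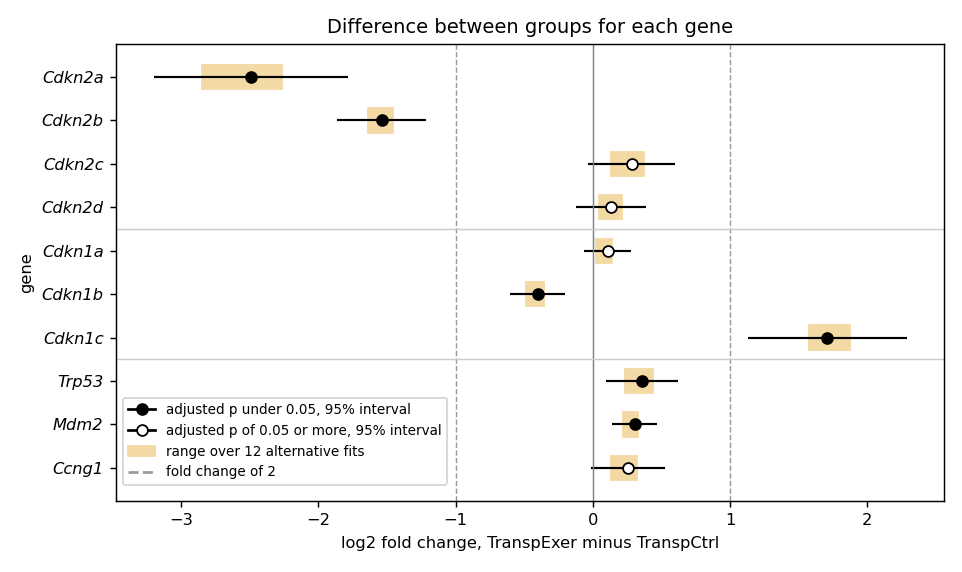
Log2 fold change of TranspExer over TranspCtrl for the 10 genes with 95% intervals from the edgeR quasi-likelihood fit, grouped as INK4, Cip/Kip and p53 genes. Intervals of *Cdkn2a* (-3.20 to -1.79) and *Cdkn2b* (-1.86 to -1.21) lie below 0 and that of *Cdkn1c* (1.13 to 2.29) above it, while those of *Cdkn2c*, *Cdkn2d*, *Cdkn1a* and *Ccng1* span 0.

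Ordered by level per kilobase, *Cdkn1a* led in both groups, at 92.4 ± 3.66 CPM per kb in TranspCtrl and 99.7 ± 4.28 in TranspExer (SD, n = 3 each). *Ccng1* and *Trp53* followed in both groups, and their sample ranges overlapped. In TranspCtrl the order went on with *Cdkn1b*, *Mdm2*, *Cdkn2c*, *Cdkn2b*, *Cdkn2d* and *Cdkn2a*, and ended with *Cdkn1c* at 0.386 ± 0.0789 CPM per kb. The ranges of *Mdm2* and *Cdkn2c* overlapped there, as did those of *Cdkn2b* and *Cdkn2d*. In TranspExer, *Mdm2* and *Cdkn1b* could not be ordered beyond their spread, *Cdkn2b* lay below *Cdkn2d*, and the last places were held by *Cdkn1c* at 1.27 ± 0.137 and *Cdkn2a* at 1.19 ± 0.465 CPM per kb, whose ranges overlapped. The order depends on the deposited lengths. Before division by length, *Ccng1* stood above *Cdkn1a*, at 224 against 85.2 CPM in TranspCtrl and 268 against 91.9 CPM in TranspExer.

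Other genes of the same pathways were taken from lists of known members, and each count is set beside the 16.6% of all tested genes that rose and the 15.5% that fell. Of 28 further p53 targets, 9 rose and 3 fell, with a median log2 fold change of 0.19. *Gdf15*, a stress-induced cytokine, stood at 13.6 ± 0.636 CPM in TranspCtrl and 41.1 ± 2.93 in TranspExer (log2 fold change 1.59, SE 0.09, adjusted p = 4.66e-05). *Gtse1*, which restrains p53 in G2, and *Plk2*, a polo-like kinase, had log2 fold changes of 0.78 (adjusted p = 0.00131) and 0.42 (adjusted p = 0.00363). *Trp53inp1*, a p53 cofactor in stress and autophagy, fell from 266 ± 25.5 to 78.4 ± 2.88 CPM (log2 fold change -1.76, SE 0.09, adjusted p = 3.91e-05). The antiproliferative gene *Btg2* (-0.68, adjusted p = 0.00295) and the death receptor gene *Fas* (-0.78, adjusted p = 0.0250) fell too, *Fas* losing the call under 2 of 12 alternative fits (adjusted p up to 0.101).

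Among 12 regulators of p53, 1 rose and 3 fell, beside 32.2% of all tested genes called in either direction. The gene that rose was *Chek2*, a kinase that stabilizes p53 (log2 fold change 0.35, adjusted p = 0.0323), and this call was lost under 8 of 12 alternative fits (adjusted p up to 0.122). *Mdm4*, the partner of *Mdm2*, stood at 132 ± 11.2 CPM in TranspCtrl and 86.3 ± 7.47 in TranspExer (log2 fold change -0.62, SE 0.10, adjusted p = 0.00275), the opposite direction to *Mdm2*. The damage-signalling kinase gene *Atm* (-0.76, adjusted p = 0.0102) and *Trp53bp1* (-0.29, adjusted p = 0.0339) also fell. Under 2 and 5 of the alternative fits, respectively, these calls were lost (adjusted p up to 0.0514 and 0.135).

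Of 9 G1 cyclins and CDKs, 4 rose and 5 did not pass, beside 16.6% of all tested genes higher. *Cdk6*, the gene of a kinase that INK4 proteins bind, stood at 74.4 ± 17.8 CPM in TranspCtrl and 145 ± 5.30 in TranspExer (log2 fold change 0.96, SE 0.16, adjusted p = 0.00409). For *Ccnd3*, the gene of its partner cyclin D3, the log2 fold change was 0.59 (adjusted p = 0.0112), and for the phosphatase gene *Cdc25a* it was 0.36 (adjusted p = 0.0248), a call lost under 6 of 12 alternative fits (adjusted p up to 0.101). Of 15 RB and E2F genes, 6 rose and 9 did not pass, beside the same share. Among those that rose were *E2f8* (0.62, adjusted p = 0.00132), *E2f4* (0.50, adjusted p = 0.00613) and *E2f1* (0.39, adjusted p = 0.0103), the last of which was lost without TranspExer replicate 3 (adjusted p = 0.0550).

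Of 20 regulators of the inhibitors, 2 rose, 1 fell and 17 did not pass, beside 32.2% of all tested genes called in either direction. *Ets1* and *Ets2*, whose products activate the p16Ink4a promoter, had log2 fold changes of 0.48 (adjusted p = 0.00985) and 0.63 (adjusted p = 0.00846). *Cbx7*, a Polycomb gene that represses *Cdkn2a*, fell (-0.50, adjusted p = 0.0204). In 3 of the alternative fits its log2 fold change was -0.51 to -0.44 and the call was lost (adjusted p up to 0.0785). Of 5 relatives of the 10 genes, 1 fell and 4 did not pass. It was *Ccng2*, the paralog of *Ccng1*, at 50.2 ± 3.69 CPM in TranspCtrl and 29.3 ± 0.967 in TranspExer (log2 fold change -0.78, SE 0.08, adjusted p = 0.000478).

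Of 12 proliferation genes, 5 rose and 1 fell, beside 16.6% and 15.5% of all tested genes. The replication licensing genes *Mcm5* (0.47, adjusted p = 0.00243) and *Mcm2* (0.40, adjusted p = 0.00599) and the mitotic kinase gene *Plk1* (0.55, adjusted p = 0.00504) rose, whereas *Mki67*, the gene of the Ki-67 antigen, fell (-0.30, adjusted p = 0.0418), a call lost under 6 of the alternative fits (adjusted p up to 0.145).

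**Figure D3:**
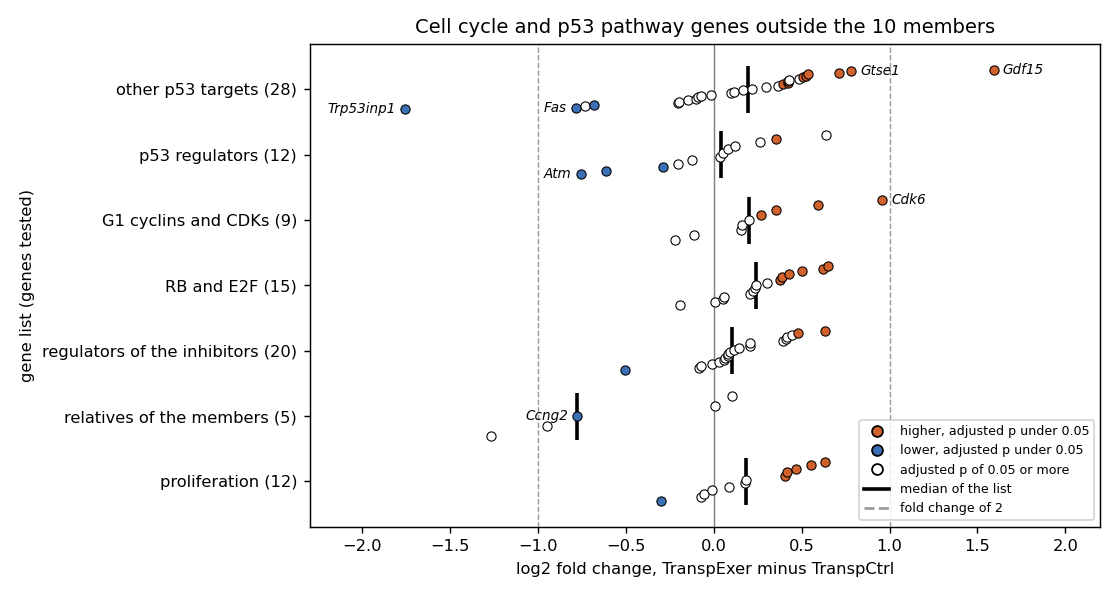
Log2 fold change of TranspExer over TranspCtrl for every tested gene of each pathway list, with genes at an edgeR adjusted p under 0.05 marked. The other p53 targets hold 9 higher and 3 lower genes, and the RB and E2F list 6 higher genes.

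The surroundings of the loci with the largest differences were described within 500 kb on either side, a window chosen after the values had been seen. Around *Cdkn2a* and *Cdkn2b*, 24 of 36 gene models had 3 counts or fewer in every sample and 4 were tested, *Cdkn2a* and *Cdkn2b* among them. The metabolic gene *Mtap*, which lies beside the locus, stood at 60.2 ± 3.18 CPM in TranspCtrl and 56.4 ± 2.91 in TranspExer (log2 fold change -0.09, SE 0.08, edgeR adjusted p = 0.382). Around *Cdkn1c*, 19 of 38 models were tested, *Cdkn1c* included. *Kcnq1ot1*, the long noncoding RNA that silences this imprinted domain on the paternal chromosome, differed by 0.02 on the log2 scale (edgeR adjusted p = 0.871), with a sign that changed with the scaling. For *Slc22a18*, an imprinted neighbour, it was 0.95 (SE 0.31, edgeR adjusted p = 0.0486), a call lost under 9 of 12 alternatives (adjusted p up to 0.166). Neither *Kcnq1* (0.54, adjusted p = 0.282, and 0.26 without TranspCtrl replicate 1) nor *Nap1l4* (-0.10, adjusted p = 0.351) passed the test. Of the other models, *Tnfrsf26* (0.86, adjusted p = 0.00156), *Dhcr7* (0.70, adjusted p = 0.0118) and *Tspan32* (0.48, adjusted p = 0.0107) rose and *Cars* (-0.27, adjusted p = 0.0268) fell. The genes called around *Cdkn1c* stand beside 32.2% of all tested genes called in either direction. A difference of the region as a whole was not tested. The calls of *Dhcr7*, *Tspan32* and *Cars* were lost under 1, 1 and 5 of 12 alternatives (adjusted p up to 0.0525, 0.0581 and 0.113).

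**Figure D4:**
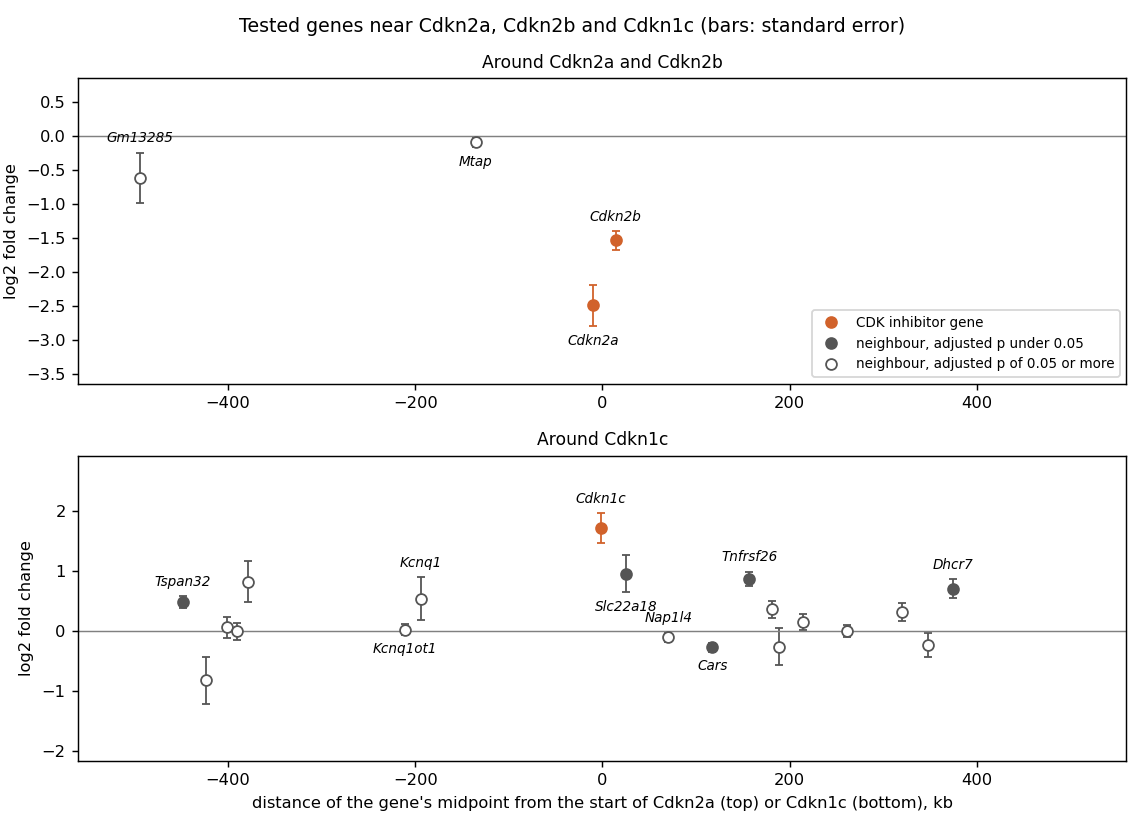
Log2 fold change of tested genes within 500 kb of the *Cdkn2a* and *Cdkn2b* locus and of *Cdkn1c*, plotted against the distance of the gene midpoint in kb, with bars for the standard error and filled points for an edgeR adjusted p under 0.05. *Mtap*, the closest tested gene outside the *Cdkn2a* and *Cdkn2b* pair, lies at -0.09, and *Slc22a18*, the one closest to *Cdkn1c*, at 0.95.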

How the data were processed

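The authors deposited expected counts per gene, estimated by them from the reads on mm10, with each gene's length. Between 10.1% and 12.2% of the values of a sample were not whole. The aligner and counter are not given in the sources used here. The labels name a stranded mRNA kit. Counts were rounded to whole numbers, filtered with filterByExpr, normalized by TMM and tested with the edgeR 4.0.16 quasi-likelihood test in R 4.3.3 (condition only, 3 against 3 samples), and p-values were adjusted by Benjamini-Hochberg over 15190 genes. Calls used an adjusted p under 0.05 and, where stated, a 2-fold change, as in the methods of the study. CPM used TMM library sizes, and levels between genes were compared per kilobase of deposited length. Gene positions are from GENCODE on GRCm38. DESeq2 1.42.0, other scalings and filters, a replicate block and leaving out each sample were alternatives. The script was tested on simulated data. The 10 genes and all lists were chosen with earlier results of these data known. Named are the 10 genes, up to 3 genes per direction with the smallest adjusted p in each pathway list, and, of marker lists, the most abundant gene and those with 3 counts or fewer in every sample. Neighbouring genes were named after their values were seen. No libraries matched within sampling noise. A marker gene that this rule would name is not reported here.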

Additional observations from a re-analysis of the deposited data

How the results depend on the processing

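Over 12 alternative fits, 111 of 120 values of the 10 genes kept their direction and their side of the threshold, 9 lost the call and 0 reversed. The losses were those of *Trp53* and *Mdm2*, including *Trp53* with library size only (adjusted p = 0.0562). Log2 fold changes ranged from -2.85 to -2.26 for *Cdkn2a*, from -1.64 to -1.46 for *Cdkn2b*, from -0.49 to -0.36 for *Cdkn1b* and from 1.57 to 1.87 for *Cdkn1c*, with every adjusted p under 0.05. Of 396 values of the named list and neighbour genes, 343 stayed, 49 lost the call and 4 reversed, all of *Kcnq1ot1* (-0.0588 with upper-quartile normalization, -0.0663 with library size only, -0.0055 with the filter at a mean of 1 CPM, and from -0.0054 without TranspExer replicate 1 to 0.042 without TranspCtrl replicate 1). Upper-quartile normalization called 2052 genes higher and 2901 lower, and library size only 2013 and 2962, against 2523 and 2361. With either scaling 0 p53 regulators and 2 G1 genes were higher, and 1 G1 gene and 1 RB or E2F gene were lower. DESeq2 called 2 p53 regulators higher and 1 G1 gene lower, the filter at 1 CPM 1 G1 gene lower, and no filter 2 relatives lower. Leaving out 1 sample moved the share of all tested genes called from 32.2% to between 16.9% and 41.7% (highest without TranspCtrl replicate 1), and in the same fits gave 1 to 3 of the 10 genes higher (1 without TranspExer replicate 2 or 3), 0 to 3 p53 regulators higher and 1 to 3 lower (1 without TranspExer replicate 1 or 2), 2 to 5 G1 genes higher and 0 to 2 lower, 2 to 7 RB and E2F genes higher (fewest without TranspExer replicate 3) and 0 to 1 lower, 2 to 6 regulators of the inhibitors higher (6 without TranspCtrl replicate 1) and 0 to 1 lower, 1 to 2 relatives lower, and 3 to 6 proliferation genes higher (3 without TranspExer replicate 1 or 3) and 0 to 1 lower. Samples with the same number showed no shared deviation (correlations 0.0247, -0.00167 and 0.0416, against -0.0807 to 0.0736 for those with different numbers). This cannot exclude that the numbers pair them. The replicate block called 2 p53 regulators higher and 0 proliferation genes lower, and changed the call of 0 of the 10 genes. *Cdkn1c* rests on 12 to 51 counts per sample and *Cdkn2a* on 14 to 159, which limits their precision.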
